A study of Homo sapiens with 21 samples.

Results

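Each of 51 gene loci was viewed in undifferentiated B cells from 2 places, an enhancer and a boundary site bound by CTCF (a CTCF-binding site, CBS), and the libraries of both viewpoints were compared locus by locus. All loci of these panels were taken except IFNGR2 and TASL, which gave 102 tables of the 371 deposited. The cells were BLaER1, a B cell leukemia line that carries an inducible C/EBPα transgene, through which it can be converted to macrophage-like cells. At 0 h conversion had not been started, and both groups were wild type for CTCF. A single line was used, so the values describe this line. Tri-C, a capture method that reads several ligated fragments at once, was run with the restriction enzyme NlaIII. Enhancers (group TriC Enhancer 0h) and boundaries (TriC CBS 0h) were captured with separate oligonucleotide panels in separate libraries. GEO lists 3 samples in each group, but each table holds their pooled counts, so no spread between replicates can be given and every test compares a pair of libraries, not conditions. The same panels at 24 h and 96 h of conversion served only as further libraries of the same viewpoints. Of the 51 loci, 36 belong to genes specific to induced macrophages (iMac loci) and 15 to genes specific to B cells.

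Enhancers are stretches of DNA that bind transcription factors and raise transcription of a target promoter, often from a distance. CTCF binds a long, asymmetric DNA motif, and the cohesin complex, which extrudes chromatin loops, is held at CTCF sites mainly when it arrives from the side towards which the motif points. Convergent CTCF sites therefore often mark the borders of domains, and contacts from such a site commonly extend into the domain on its own side. In B cell precursors the genes for the recombination machinery and the pre-B-cell receptor are active. Genes for macrophage receptors and cytokines are largely silent there until the lineage changes.

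A count in these tables is a read that joins the viewpoint to a pair of other fragments, here called reporters, on the same chromosome. Distant counts had both reporters within 1 Mb of the viewpoint, over 10 kb away from it and over 10 kb apart. Within 1 Mb the enhancer libraries held 2547254 counts in all (median 46546 per locus, from 22159 to 88682) and the CBS libraries 2114228 (median 38738, from 13079 to 73792). The CBS library was the shallower one at 36 of 51 loci. Distant counts came to 726426 and 649183. The DNTT and IGLL1 loci each lie within 1 Mb of another captured locus, IGLL5 in the case of IGLL1, so they are not fully separate views of the genome.

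Enhancers lay a median of 66.6 kb from the promoter of their gene (21.1 to 588 kb) and CBSs 150 kb (2.25 to 1067 kb). The CBS was farther from the promoter than the enhancer at 41 of 51 loci. The promoter lay between enhancer and CBS at 24 loci, the enhancer lay in the middle at 26, and the CBS at 1, CD38. By the annotation, 35 enhancer viewpoints were intergenic and 16 intronic. Of the CBS viewpoints 24 were intergenic, 24 intronic and 3 exonic.

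The 12-letter core of the CTCF motif was searched on both strands within 1 kb of each viewpoint. It was found at 12 of 51 CBS viewpoints (23.5%) and 6 of 51 enhancer viewpoints (11.8%), against 5.03% of all 1263219 regions of the same length on the same chromosomes. Apart from 1 locus, the matched CBS sequences are shown because their strand is set beside the direction of contacts. Each is the hg38 sequence read 5′ to 3′ along the matching strand, with the 12 motif letters in capitals. The NFKBIZ match is offset by −863 bases from the middle of its viewpoint, and the others lie in the stretch around the viewpoint from which the tables list no fragment.
LMO2 (chr11:33858018-33858047, forward): aggtgatggCCAGAAGGTGGCgctctgcat
BCL2 (chr18:63016428-63016457, forward): gtcatgaagCCACTAGGGGGCaggggaaga
MXD1 (chr2:69912150-69912179, forward): acttcatttCCAGTAGATGGCaccaaacac
TNFRSF1B (chr1:12118781-12118810, forward): taagccttgCCAGCAGAGGGCgctagaggg
IGLL1 (chr22:23862279-23862308, forward): gccaggcatCCACTAGGTGGCactttctgc
IL10RA (chr11:118053568-118053597, reverse): acatttcagCCACCAGAGGGCgctcaggtt
MPEG1 (chr11:59430102-59430131, reverse): ggcatatttCCACTAGGTGGCagcaacatt
DNTT (chr10:96340473-96340502, reverse): ttctgtcagCCATCAGAGGGCgctctgctg
NFKBIZ (chr3:102224388-102224417, reverse): cctgaccacCCAGCAGGTGGCctcagatta
CEBPA (chr19:33407002-33407031, reverse): cagaactggCCAGAAGAGGGCagtgttgtc
ITGAX (chr16:31460858-31460887, reverse): cacacattgCCACTAGGAGGCaccaattta

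Boundary viewpoints looked mostly to the side on which their motif pointed. Among distant counts with both reporters on 1 side of the viewpoint, the share downstream (at higher coordinates) was over 50% at all 5 CBSs with a forward motif, from 73.0% to 80.2%. It was under 50% at 6 of the 7 with a reverse motif, with a median of 33.4%. IL10RA, the interleukin-10 receptor chain, was lowest at 14.8%. The exception was ITGAX, which encodes the integrin αX of dendritic cells and macrophages, at 53.7% downstream, and its CBS library was the shallowest of all at 13079 counts. The 39 CBSs without a match spread from 17.4% to 88.7% downstream, with a median of 47.7%. Only fixed letters were searched, so a site without a match may still hold a CTCF motif that departs from them. These 39 CBSs are therefore not shown to lack a motif. Their enhancer lay downstream at 18 of the 39. Towards the enhancer they leaned as well, with a median share of 75.4%, against 74.9% with a forward and 66.6% with a reverse match. At 11 of the 12 sites the strand also pointed to the enhancer, and there the direction of the motif and that of the enhancer cannot be told apart. IGLL1, the surrogate light chain λ5 of the pre-B-cell receptor, was the exception. Its motif points downstream, its enhancer lies upstream, and 73.0% of its same-side counts went downstream. At the 3 enhancer viewpoints with a forward match the downstream share was 31.9% to 37.7%, and at the 3 with a reverse match 17.6% to 53.6%. These are descriptions of few sites, with no test.

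**Figure D1:**
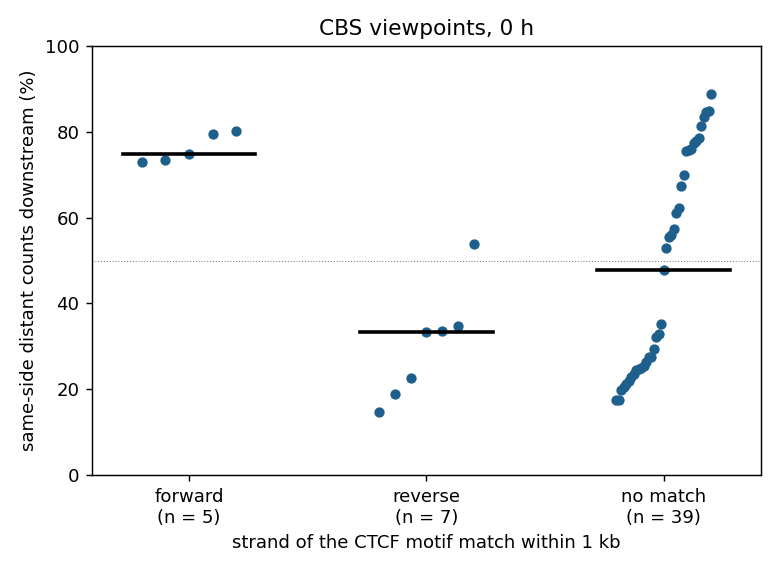
Share of same-side distant counts that lay downstream of each CBS viewpoint (percent, 1 point per viewpoint, black bar the median), by the strand of the CTCF motif letters within 1 kb. The 5 viewpoints with a forward match lie between 73.0% and 80.2%, and 6 of the 7 with a reverse match lie below 50%. Viewpoints without a match are not shown to lack a CTCF motif, since only fixed letters were searched.

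Contacts from boundaries leaned to the side of the enhancer, and contacts from enhancers hardly leaned to the boundary. The inward share is the part of same-side distant counts on the side of the other element, the CBS for an enhancer viewpoint and the enhancer for a CBS viewpoint. Its median was 53.6% from enhancers (quartiles 41.3% and 62.0%) and 75% from CBSs (65.0% and 79.1%). It was higher from the CBS at 44 of 51 loci. By Fisher's exact test between the 2 libraries of a locus, with Benjamini-Hochberg adjustment over loci, 41 loci were called higher from the CBS (80.4%) and 7 higher from the enhancer (13.7%). Without regard to direction, the preferred side held a median of 61.5% from enhancers and 75.4% from CBSs.

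Among the myeloid transcription regulators, 12 of 13 were called higher from the CBS. So were 12 of 13 myeloid surface and secreted proteins, 6 of 10 signalling and other myeloid loci, all 4 B lineage transcription factors, 4 of 7 receptor and recombination loci and 3 of 4 other B cell loci. LMO2, a transcriptional cofactor of blood progenitors, had 48.7% of same-side counts inward from the enhancer and 80.2% from the CBS. MYB, a transcription factor of proliferating progenitors, had 37.7% and 76.3%. CCR1, a chemokine receptor of monocytes, had 53.6% and 82.6%, a log2 odds ratio of 2.04 (95% interval 1.97 to 2.11). SRGN, the core protein of granule proteoglycans, had 44.7% and 76.1%.

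Wide gaps were found at loci whose enhancer looked away from the boundary. At DDIT4, a stress-induced inhibitor of mTORC1 signalling, the enhancer sent 15.1% of same-side counts inward and the CBS 74.6%, a log2 odds ratio of 4.04 (3.91 to 4.17). At IGLL5, an immunoglobulin lambda-like gene, the shares were 17.6% and 72.5%. At GAS7 they were 31.3% and 84.5%, and at CD14, the co-receptor for lipopolysaccharide, 35.3% and 78.8%. At DDIT4, IGLL5 and GAS7 the enhancer lies between promoter and CBS, so the outward side of the enhancer is that of the promoter, while at CD14 the promoter is 2.25 kb from the CBS.

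At RAG2, a subunit of the recombinase that assembles antigen receptor genes, both viewpoints looked inward to a similar extent. The share was 80.8% from the enhancer and 81.3% from the CBS, a log2 odds ratio of 0.05 (−0.06 to 0.15) with an adjusted p of 0.370 by Fisher's exact test. CD38, an ectoenzyme of lymphocytes, went the other way, with 54.4% from the enhancer and 24.5% from the CBS. It is the locus whose CBS lies between enhancer and promoter, so from the CBS the promoter was on the outward side. PELI1, an E3 ubiquitin ligase of immune signalling, had 55.2% and 30.2%, IGLL1 had 40.6% and 27.0%, and ITGAX had 61.5% and 46.3%. With both reporters over 50 kb away, the difference at IGLL1 turned, to a log2 odds ratio of 0.71.

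The lean of the boundaries recurred in the later libraries. At CCR1 the inward share from the CBS was 82.6% at 0 h, 87.2% at 24 h and 83.4% at 96 h, while from the enhancer it was 53.6%, 70.3% and 86.7%. At MYB the CBS gave 76.3%, 83.8% and 88.2% and the enhancer 37.7%, 43.3% and 47.0%. Over all loci the sign of the difference was that of 0 h at 48 of 51 at 24 h and 46 of 51 at 96 h. CCR1 was a locus whose sign had turned by 96 h.

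**Figure D2:**
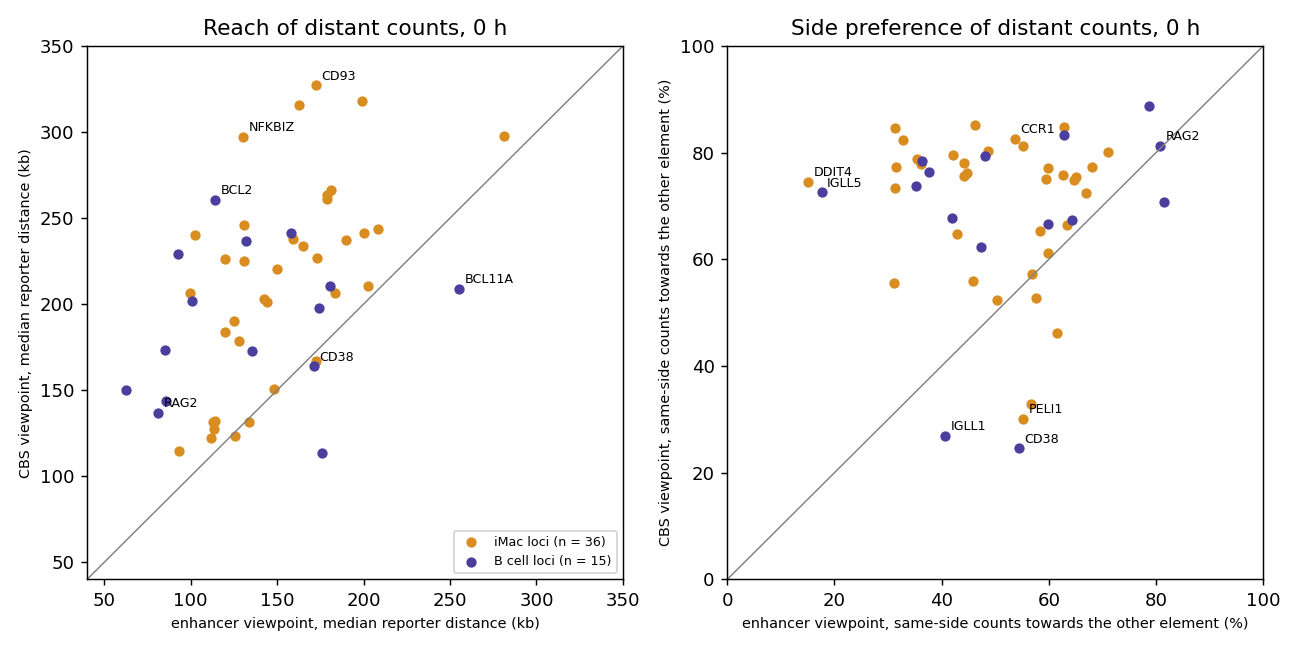
Each point is a locus (n = 51) at 0 h, with the enhancer viewpoint on the x axis and the CBS viewpoint on the y axis: left, median distance of reporters of distant counts (kb), and right, inward share of same-side distant counts (percent). Points above the line are higher from the CBS, 45 of 51 on the left and 44 of 51 on the right.

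Boundaries also reached farther than enhancers within 1 Mb. The median distance of reporters of distant counts had a median over loci of 143 kb from enhancers (quartiles 114 and 175 kb) and 209 kb from CBSs (165 and 240 kb). It was longer from the CBS at 45 of 51 loci, with a median difference of 57.8 kb. On the inward side the medians were 144 and 235 kb, longer from the CBS at 47 of 51 loci. On the outward side they were 147 and 154 kb, longer from the CBS at 25 loci and shorter at 26. The share of distant counts whose farther reporter lay over 250 kb away was 53.5% from enhancers and 63.3% from CBSs in the median. By Fisher's exact test 37 loci were called higher from the CBS (72.5%) and 6 higher from the enhancer (11.8%).

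The order turned for the longest contacts. Of all counts on the chromosome, those with a reporter beyond 1 Mb made up a median of 35.7% from enhancers and 31.5% from CBSs, and the enhancer was higher at 44 of 51 loci. When the whole chromosome was taken, the median difference of the reporter distance was −31.3 kb, so that enhancer viewpoints had the longer distances. Within 1 Mb the size depended on the threshold. The median log2 odds ratio of the share was 0.54 over 250 kb and 0.13 over 500 kb, where 13 loci were called higher from the enhancer.

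NFKBIZ, a nuclear IκB protein that regulates inflammatory genes, showed the largest difference in reach. Its enhancer (chr3:101936717-101938167, intergenic) had a median reporter distance of 130 kb, and its CBS (chr3:102224585-102225937, in an intron of ZPLD1) of 297 kb. The share over 250 kb was 47.0% and 78.6%, a log2 odds ratio of 2.06 (1.97 to 2.14). With a threshold of 500 kb the order at NFKBIZ turned, to a log2 odds ratio of −0.36. The enhancer libraries of NFKBIZ gave 130 kb at 0 h, 111 kb at 24 h and 95.8 kb at 96 h, and the CBS libraries 297, 319 and 315 kb. The distance was longer from the CBS at each of these times.

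CD93, a glycoprotein of myeloid and endothelial cells, had 173 kb from the enhancer and 327 kb from the CBS. BCL2, the inhibitor of apoptosis, had 114 and 261 kb, GAS7 103 and 240 kb, and MYB 92.9 and 229 kb. At 6 loci the distance was longer from the enhancer. The largest of these was IGLL1, with 176 kb from the enhancer and 114 kb from the CBS. BCL11A, a repressor needed for B lymphopoiesis, had 255 and 209 kb. CD38 had 171 and 164 kb, and CCL2, a chemokine that attracts monocytes, 172 and 167 kb. All 13 myeloid transcription regulators had the longer median distance from the CBS. By class, the CBS had the longer distance at 33 of 36 loci of the iMac class and at 12 of 15 of the B cell class.

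RAG2 shows that a longer median distance need not mean more contacts over 250 kb. Its median reporter distance was 81.2 kb from the enhancer and 137 kb from the CBS, but the share over 250 kb was 38.2% and 37.2% (adjusted p = 0.0852, Fisher's exact test). With a threshold of 100 kb the log2 odds ratio at RAG2 was 1.34.

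**Figure D3:**
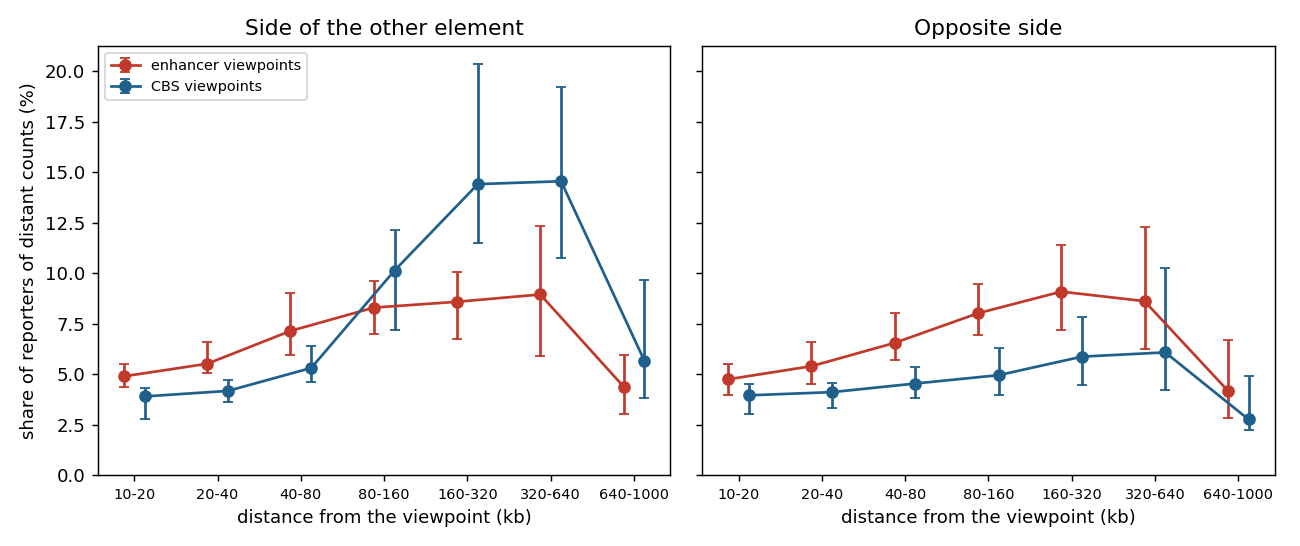
Share of the reporters of distant counts (percent) by distance from the viewpoint (kb), on the side of the other element and on the opposite side. Points are medians over 51 loci and bars the quartiles. The CBS viewpoints held 14.4% of reporters at 160 to 320 kb on the inward side against 5.88% on the opposite side, and the enhancer viewpoints 8.59% and 9.10%.

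Boundaries held more reporters than enhancers only on the inward side and beyond 80 kb, in these medians. Between 160 and 320 kb inward lay a median of 14.4% of the reporters of a CBS viewpoint and 8.59% of those of an enhancer viewpoint. Between 320 and 640 kb inward the values were 14.6% and 8.96%. Between 20 and 40 kb inward they were 4.18% and 5.53%, so enhancers held more of the short contacts. On the opposite side CBS viewpoints were lower in every range, with 5.88% and 9.10% at 160 to 320 kb.

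Contacts from boundaries often ran past the enhancer, more than contacts from enhancers ran past the boundary. Passing was counted among inward same-side distant counts, as those whose farther reporter lay over 6 kb beyond the other element, and this measure was added after the tables had been seen. Its median was 61.2% from enhancers and 84.0% from CBSs, higher from the CBS at 47 of 51 loci. The distance between the elements is the same for both viewpoints of a locus. Where the elements are near, the 10 kb limits leave few inward counts that do not pass, and both shares are close to the ceiling. Such loci are among those called, as DDIT4 (99.1% from the enhancer and 99.8% from the CBS) and CD14 (98.3% and 99.3%). By Fisher's exact test 46 loci were called higher from the CBS (90.2%) and 2 from the enhancer (3.92%). At LMO2 the shares were 78.7% and 95.6%, at KLF4, a zinc-finger factor of monocytes, 40.2% and 83.7%, and at DNTT, the terminal transferase that adds nucleotides during recombination, 50.9% and 88.7%. At IRAG2, whose elements lie 121 kb apart, they were 37.7% and 84.0%. CD38 was among the loci called the other way, with 60.6% from the enhancer and 44.2% from the CBS. With reporters over 50 kb away and apart, 25 of 51 loci were called higher from the CBS. At that setting every inward count passes where the elements are near, as at LMO2 (72.5 kb apart). Such loci could not be called there, so the fall in called loci is partly fixed by the setting. On the whole chromosome the median log2 odds ratio fell from 1.41 to 0.78, with 7 loci called higher from the enhancer.

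Fewer distant counts from boundaries had a reporter on each side of the viewpoint. The straddling share had a median of 36.3% from enhancers and 31.0% from CBSs, and 39 loci were called higher from the enhancer (76.5%) and 4 higher from the CBS (7.84%) by Fisher's exact test. The share that follows when the side shares of the reporters are multiplied had a median of 49.0% for enhancers and 44.2% for CBSs. The ratio of observed to this expectation was 0.74 and 0.72, so both kinds of viewpoint straddled less than their side shares give. At MYB the straddling share was 37.1% from the enhancer and 26.0% from the CBS, and at CCR1 35.2% and 28.2%. IGLL5 was the widest exception, with 26.7% and 37.2%. DDIT4 (24.7% and 26.9%) and IGLL1 (29.8% and 31.9%) were also called higher from the CBS. Within 500 kb both differences changed sign, to log2 odds ratios of −0.076 and −0.020, and were no longer called. The same held at DDIT4 with each fragment pair counted once (−0.043).

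The share of counts that were distant was the measure that moved with depth. Its median was 26.4% from enhancers and 29.0% from CBSs, and 33 loci were called higher from the CBS (64.7%) and 16 higher from the enhancer (31.4%). Over the 51 loci the difference in distant share had a Spearman rho of 0.80 with the log2 ratio of the depths of both libraries. This is a description, since share and depth come from the same libraries. Where the CBS library was deeper, the share was higher from the CBS at 14 of 15 loci, with a median difference of 7.05 percentage points. Where the enhancer library was deeper, it was so at 20 of 36, with 0.80 points. RBPJ, the DNA-binding effector of Notch signalling, had 33.0% from the enhancer in 75417 counts and 19.7% from the CBS in 19413. ITGAX had 32.9% in 59199 counts and 20.2% in 13079. MXD1, a repressor of the MYC network, had 20.2% in 41787 counts and 33.5% in 38557, a gap at nearly equal depth. Without the loci with a library under 20000 counts, 9 loci were called higher from the enhancer. The part of depth in this result was not tested. For the inward share the same rho was 0.13 and for the reporter distance 0.03.

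Target promoters were met more often from the enhancer than from the boundary, and the size of the gap differed with the class of gene. At 46 loci the promoter lay within 1 Mb and over 16 kb from both viewpoints and had at least 20 counts, and could be measured. The share of counts within 1 Mb that had a distant reporter within 6 kb of the promoter had a median of 1.39% from enhancers and 0.82% from CBSs. By Fisher's exact test 34 loci were called higher from the enhancer (73.9%) and 9 higher from the CBS (19.6%). For all 12 kb windows around the loci, tested in the same way, 30.5% were called higher from the enhancer and 46.7% higher from the CBS. Since the CBS is farther from most promoters, each share was also divided by the mean of 12 kb windows at about the same distance (from 0.8 times to the inverse of it) on both sides in the same library.

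On that scale the B cell loci stood out from the enhancer side. The median log2 observed over expected at 14 B cell loci was 2.03 from the enhancer and 0.63 from the CBS, and the enhancer was higher at 12 of 14. At 30 iMac loci it was 0.09 from the enhancer and 0.44 from the CBS, and the CBS was higher at 21 of 30. By list, 10 myeloid transcription regulators had medians of 0.22 from the enhancer and 0.35 from the CBS. For 10 myeloid surface and secreted proteins the medians were 0.22 and 0.67, with the CBS higher at 9 of 10. For 7 receptor and recombination loci they were 1.98 and 0.55, with the enhancer higher at 6 of 7. The difference between the classes was not tested, since loci are not replicates.

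The side lean of the boundaries enters the value from the CBS, because the expected windows lie on both sides. When only windows on the side of the promoter were used, an alternative chosen after seeing the data, 20 iMac loci and 9 B cell loci could be measured. For those 20 iMac loci the medians were 0.04 from the enhancer and 0.39 from the CBS with both sides, and −0.06 and −0.09 with the promoter's side only, where the CBS was higher at 9 of 20. For the 9 B cell loci they were 2.13 and 0.70 with both sides and 1.42 and 0.15 with the promoter's side only, where the enhancer was higher at all 9. At these loci the higher value of the boundary at iMac promoters was seen only with windows on both sides, and the higher value of the enhancer at B cell promoters with either.

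**Figure D4:**
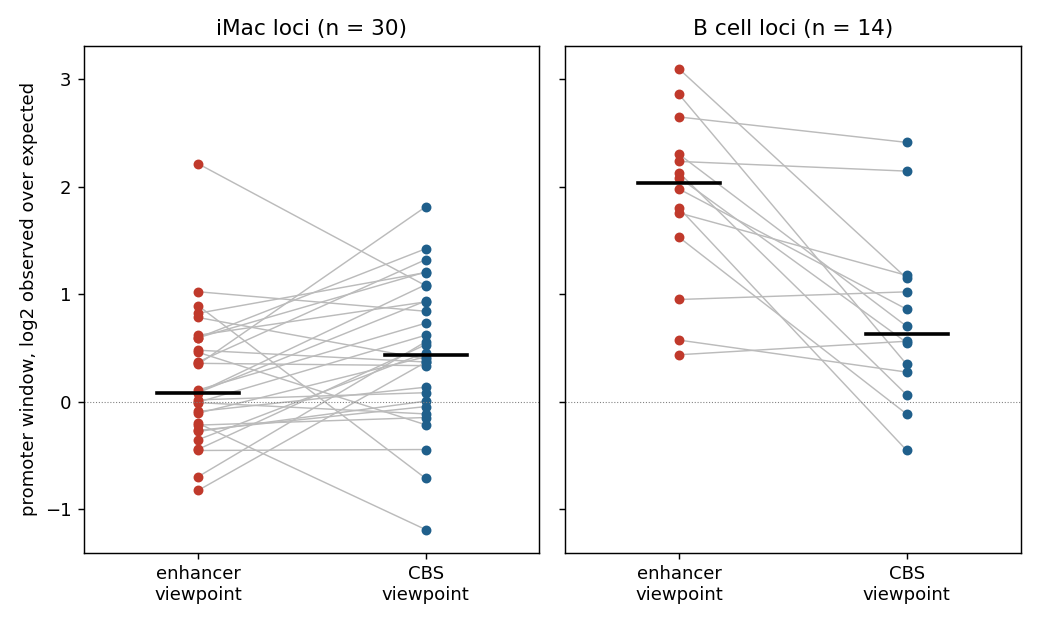
Log2 observed over expected of the promoter window from the enhancer viewpoint (red) and the CBS viewpoint (blue), 1 line per locus at 0 h, with the expected value from windows on both sides; black bars are medians. The B cell loci have medians of 2.03 and 0.63 and the iMac loci 0.09 and 0.44.

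The largest differences in promoter share were at B cell genes. IL7R, the receptor chain for interleukin-7, had 2223 of 52455 counts at its promoter from the enhancer (4.24%) and 347 of 69487 from the CBS (0.50%), a log2 odds ratio of −3.14 (−3.30 to −2.97). Its enhancer (chr5:35907896-35909693, in an intron of CAPSL) lay 51.9 kb from the promoter and its CBS (in an intron of PRLR) 767 kb. The log2 observed over expected, which allows for distance, was 3.10 and 1.15. IRAG2 had 1907 of 36901 counts from the enhancer (5.17%) and 113 of 18099 from the CBS (0.62%). From its canonical start the elements lay at the similar distances of 54.4 and 66.5 kb. The outermost start of IRAG2 (chr12:25004342), however, lies within 16 kb of the enhancer viewpoint (middle chr12:24998282). With that start the locus could not be measured. DNTT had 3.42% and 0.61% although its CBS was the nearer element, 36.3 kb from the promoter against 68.4 kb. IGLL1 had 1.98% and 0.32%. MYB had 1.82% and 0.84%, but its observed over expected was 0.44 from the enhancer and 0.56 from the CBS. With windows on the promoter's side only, the order at MYB was the other way, with 0.66 and −0.37. EBF1, a factor that specifies the B lineage, had 0.63% and 0.17%, and 2.30 and 0.70 observed over expected.

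At IL7R and RAG2 the promoter share from the enhancer was lower in the later libraries. The enhancer of IL7R gave 4.24% at 0 h, 1.87% at 24 h and 1.62% at 96 h, while the CBS gave 0.50%, 0.37% and 0.58%. At RAG2 the enhancer gave 4.16%, 2.78% and 2.52% and the CBS 1.87%, 1.86% and 2.06%. At each of these times the share at RAG2 was higher from the enhancer. At CCR1 the enhancer gave 1.48%, 3.10% and 6.31% and the CBS 1.33%, 1.78% and 2.97%. At 0 h the gap at CCR1 was small, with a log2 odds ratio of −0.16 (−0.28 to −0.04) and an adjusted p of 0.0123 by Fisher's exact test. The sign of the difference in promoter share was that of 0 h at 39 of 46 loci at 24 h and 40 of 46 at 96 h.

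At 9 loci the promoter share was higher from the boundary. CD38 had 0.35% from an enhancer 377 kb away and 2.06% from a CBS 48.0 kb away, and 0.95 and 1.02 observed over expected. BCL2 had 1.84% and 2.88%, and 2.24 and 2.15 observed over expected. KDM7A, a histone demethylase, had 0.96% and 1.49%, with 0.09 and 1.09 observed over expected. CREG1, a secreted glycoprotein, had 0.85% and 1.42%. TRIB1, a pseudokinase that controls the stability of C/EBPα, had 0.62% and 0.88%, and SRGN 2.72% and 3.38%. With windows of 30 kb the difference at TRIB1 changed sign, to a log2 odds ratio of −0.068, and was no longer called. With distant counts as the denominator the difference at SRGN changed sign, to a log2 odds ratio of −0.12, and was no longer called. LMO2, whose promoter lies between elements at 38.4 and 34.0 kb, had 1.79% and 1.78% and was not called (log2 odds ratio 0.00, −0.13 to 0.12).

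The pair of enhancer and boundary could be measured from either end at the same distance. The CBS window held a median of 0.93% of counts seen from the enhancer, and the enhancer window 0.68% seen from the CBS. By Fisher's exact test 27 loci were called higher from the enhancer (52.9%), 9 higher from the CBS (17.6%) and 15 were not called. IL10RA had 2.24% from the enhancer and 0.97% from the CBS (95% intervals 2.14% to 2.35% and 0.83% to 1.12%), where the CBS library held 18498 counts and the enhancer library 71538. DNTT had 1.09% and 0.52%, RBPJ 0.52% and 0.24%, and KLF6, a zinc-finger factor, 0.80% and 0.39%. The CBS libraries of RBPJ and KLF6 were also under 20000 counts. In the other direction CD14 had 2.18% and 3.43%, PAX5, the factor that maintains B cell identity, 0.46% and 0.87%, and CITED2, a transcriptional coregulator, 0.24% and 0.42%. CCR1 had 2.15% and 2.68%, and RAG2 had the highest value of the named loci at 3.96% and 4.94%. For TRIB1 the shares were 0.71% and 0.68%, for MYB 0.39% and 0.40%, and neither was called. With distant counts as the denominator RAG2 changed sign, to a log2 odds ratio of −0.07, and was no longer called.

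At iMac loci the ends differed more when set against their own side. With windows on both sides, the log2 observed over expected at 32 iMac loci had a median of 0.57 from the enhancer and 0.51 from the CBS. With windows on the side of the other element only, it was 0.48 from the enhancer and −0.21 from the CBS, and the CBS was higher at 6 of 32. At 12 B cell loci the values were 0.79 and 0.52 with both sides and 0.35 and −0.22 on the same side, with the CBS higher at 1 of 12, and the median difference hardly moved, from −0.36 to −0.40. In the same-side medians, an alternative chosen after seeing the data, the boundary stood above its surroundings when seen from the enhancer. The enhancer did not when seen from the boundary. With windows on both sides, the medians of both ends were above expected. RAG2 had 2.17 and 0.69 on the same side. CCR1 was 1.48 from the enhancer and 1.66 from the CBS, so there both ends stood out.

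**Figure D5:**
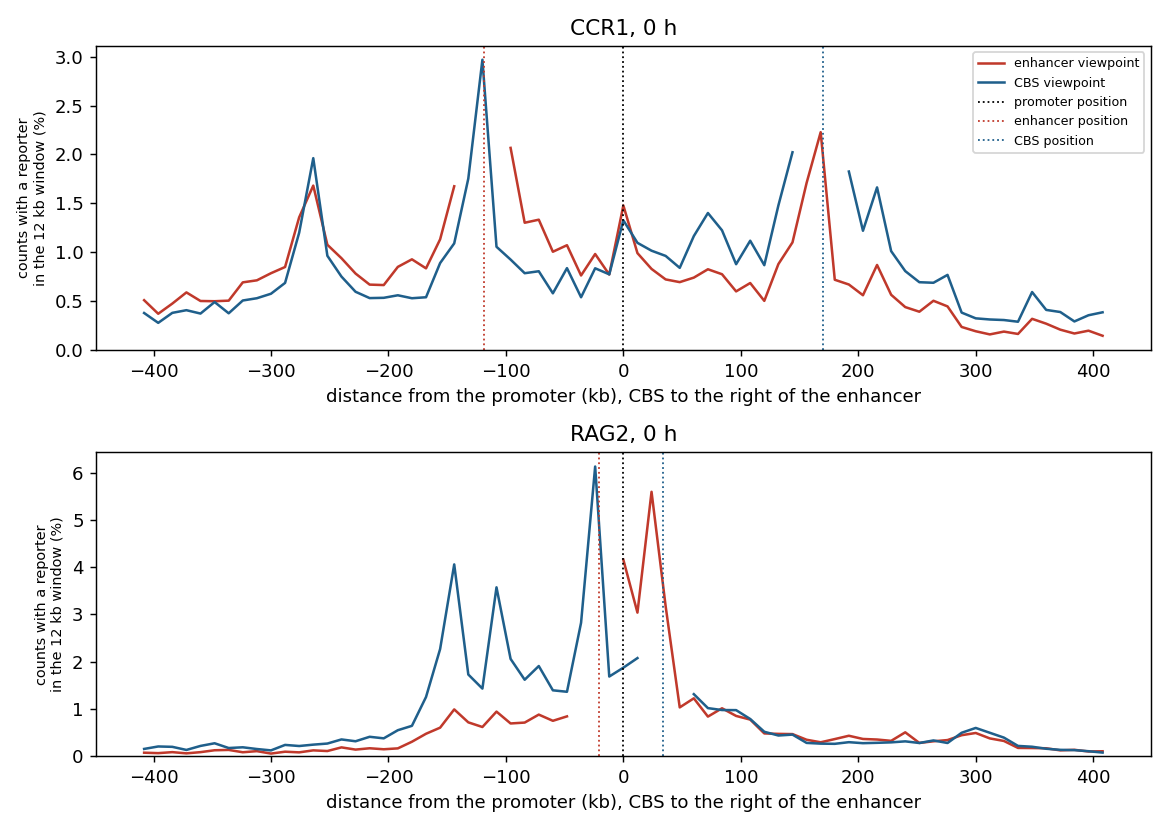
Share of counts within 1 Mb (percent) with a reporter in 12 kb windows along the CCR1 and RAG2 loci at 0 h, from the enhancer (red) and CBS (blue) viewpoints, by distance from the promoter (kb); windows within 16 kb of a viewpoint are left out. At the RAG2 promoter the enhancer gives 4.16% and the CBS 1.87%, and at the window 144 kb beyond it on the enhancer side the CBS gives 4.06% and the enhancer 0.99%.

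The profiles of CCR1 and RAG2 differed in how alike their 2 viewpoints were. At RAG2 the enhancer (chr11:36618152-36620595, in an intron of IFTAP) had its high windows between itself and the CBS (chr11:36563953-36565692, in an intron of RAG1), with 4.16% at the promoter and 5.59% at 24 kb towards the CBS. The CBS viewpoint gave 6.13% at the 12 kb window centred 24 kb from the promoter, which holds the enhancer off its centre. The window centred on the enhancer gave 4.94%. Further peaks of 3.57% and 4.06% lay 108 and 144 kb from the promoter, beyond the enhancer. In those windows the enhancer viewpoint gave 0.94% and 0.99%, which was lower but also above the windows next to them. At CCR1 both viewpoints had a high window 264 kb from the promoter on the enhancer side, of 1.68% from the enhancer and 1.96% from the CBS.

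Counts that join enhancer, boundary and promoter in a single read were few. The read can be captured from either viewpoint, and 24 loci had at least 20 such counts over both libraries. By Fisher's exact test 6 loci were called higher from the enhancer (25%) and 0 higher from the CBS (0%). RAG2 had 206 counts from the enhancer and 156 from the CBS, a log2 odds ratio of −0.68 (−0.98 to −0.38). The test compares shares of counts within 1 Mb, since the libraries differ in depth. IL10RA had 89 and 5, or 0.124% and 0.027% of 71538 and 18498 counts. DNTT had 43 and 3 (0.085% and 0.011%). LYN, a Src-family kinase, had 37 and 10 (0.059% and 0.018%), and DDIT4 26 and 2 (0.064% and 0.007%). SRGN had 65 and 42 (0.141% and 0.111%), and CCR1 38 and 40 (0.044% and 0.058%). LMO2 had 27 and 46 (0.058% and 0.067%) and KDM7A 14 and 12 (0.040% and 0.035%). None of these 4 was called. When counts were divided by 3, since a read with many reporters gives several counts, no locus was called from either viewpoint.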

How the data were processed

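The deposited tables hold raw counts, per the file headers and values: whole-number counts of reads that join a viewpoint to a pair of NlaIII reporter fragments, 1 table per locus and group. Per the methods, the authors processed reads with CapCruncher on hg38, merged the 3 replicates and counted every pair of reporters of a read, so counts of 1 read are not independent. The depth per library is given in the text. Intervals (95%) cover counting error only.

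All 27226434 reporter fragments listed in the tables used matched an NlaIII fragment of hg38. The tables leave out fragments next to a viewpoint, so each viewpoint was placed in the middle of that gap, and 101 of 102 lay within 500 bases of the capture design. The motif was searched around that middle, since the captured fragment itself was not resolved. Only matches to its fixed letters were counted, so motifs that depart from them were missed. The paper defined CBSs by overlap with CTCF ChIP-seq peaks, not by such a search. Promoters are canonical transcript starts of GENCODE. Sequences were read from hg38.

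Each locus was compared by Fisher's exact test (two-sided) on the counts of its enhancer and CBS library, with Benjamini-Hochberg adjustment over loci and a threshold of 0.05. Log2 odds ratios are CBS over enhancer with 0.5 added to each cell. Medians over loci are descriptions. The script was tested on simulated data with known differences.

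Named loci are those the study's text names, the 4 called loci with the largest difference in each direction and the deepest loci of each list, chosen after passing over the loci whose values are not reported here; those in the accounts of the motif, the CCR1 and RAG2 profiles and the same-side values, and the later time points, were chosen after their values were seen. The loci and lists were chosen with earlier results of these data known. Python 3.11.15 scripts used NumPy 2.4.6, pandas 2.3.3, SciPy 1.17.1 and pysam 0.24.0. Alternatives for distance limits, region, thresholds, windows, denominator and weighting of counts were run. The tables of the CTCF-depleted cells and of IFNGR2 and TASL were not used here.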

Additional observations from a re-analysis of the deposited data

How the results depend on the processing

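No paired analysis was possible because the tables pool the replicates and carry no replicate numbers, and for the same reason no replicate was left out. Depth limits the triple counts most, and the distant share moved with the depth of the libraries. Of the values for whole comparisons under the alternatives, 466 kept their direction and size, 37 moved and 4 reversed. Of those for single loci, 908 kept their call, and 24 lost it and 9 gained it without a change of sign. In 22 the sign changed where the locus was called before or after, and several of these were no longer called. Below, turned means that the sign changed, whether or not the locus was still called. The causes of the changes below were not tested.

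With reporters over 50 kb away and apart, the median difference in reporter distance was 20.7 kb, the median log2 odds ratio of the distant share 0.56, and the loci called were 11 higher from the CBS for straddling, 25 higher from the CBS for passing, 12 of 25 measured higher from the enhancer for the promoter, 5 of 42 higher from the CBS for the reciprocal contact and 1 of 6 higher from the enhancer for the triple. For passing, loci with near elements could not be called at this setting, since every inward count passes there. The log2 odds ratio of IGLL1 turned to 0.18 for reach and 0.71 for the inward share. Within 500 kb the difference in distance was 37.0 kb and 1 locus was called higher from the CBS for straddling. SRGN turned to 0.0094 for reach, and IGLL1, DDIT4 and RAG2 to −0.020, −0.076 and −0.10 for straddling. On the whole chromosome the difference in distance reversed to −31.3 kb, and the median log2 odds ratio was 0.10 for reach, −0.11 for straddling and 0.78 for passing. The loci called were then 16 higher from the enhancer for reach, 11 higher from the enhancer for the inward share, 7 higher from the enhancer for passing and 10 higher from the CBS for straddling. BCL11A turned to 0.0045 for reach and RAG2 to −0.10 for straddling.

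With each fragment pair counted once, 2 loci were called higher from the CBS for straddling and 5 for the reciprocal contact, IGLL1 turned to 0.0075 for reach and DDIT4 to −0.043 for straddling. With counts divided by 3, 2 loci were called higher from the CBS for straddling and 0 of 10 higher from the enhancer for the triple. Without neighbouring fragments the distant share of TRIB1 turned to 0.15. With a threshold of 100 kb the median log2 odds ratio of reach was 1.003, 3 loci were higher from the enhancer, and CCL2, SRGN, RAG2 and CCR1 turned to 0.75, 0.35, 1.34 and −0.10. With 500 kb it was 0.13, 13 loci were higher from the enhancer, and NFKBIZ turned to −0.36.

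Triples called higher from the enhancer numbered 2 of 9 measured with windows of 7.5 kb, 12 of 33 with 20 kb and 11 of 24 with distant counts as the denominator, and with 30 kb 2 of 36 were called higher from the CBS. The iMac difference in log2 observed over expected of the reciprocal contact was 0.21 with 20 kb and 0.20 with 30 kb. With 30 kb windows the CBS value was 1.21 at B cell promoters and 0.72 for the iMac reciprocal contact, 16 of 47 loci were called higher from the CBS for the latter measure, TRIB1 turned to −0.068 for the promoter, and LYN and SRGN to 0.044 and 0.37 for the triple. With distant counts as the denominator SRGN turned to −0.12 for the promoter and −0.039 for the reciprocal contact, and RAG2 to −0.070 for the latter.

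Some alternatives were chosen after seeing the data. With the expected value from the same side only, the CBS value at iMac promoters reversed to −0.094 and the difference to −0.064. For the reciprocal contact the CBS value was −0.21 at iMac loci, also reversed, and −0.22 at B cell loci, and the iMac difference was −0.54. Without the loci with a library under 20000 counts, 9 loci were higher from the enhancer for the distant share. Without IGLL1 and IGLL5, 2 loci were higher from the CBS for straddling.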
